A study of Homo sapiens with 6 samples.

Results

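The mRNAs of the RNA interference and microRNA machinery were compared between ACHN cells in which OTUD1 was targeted with a small interfering RNA (siRNA) and control ACHN cells, called control siRNA here. The 10 genes were chosen by name: the nuclease DROSHA and its partner DGCR8, the nuclease DICER1 and its partner TARBP2, the argonautes AGO1, AGO2, AGO3 and AGO4, and the scaffold proteins TNRC6A and TNRC6B. Earlier results of these data were known when they were chosen. Each of the 10 symbols was found on a single row among the 58735 rows of the count table, and all 10 were among the 15244 genes with enough counts to be tested. ACHN is a human renal cancer line, and OTUD1 encodes an enzyme that strips ubiquitin from other proteins. The 2 groups, control siRNA and OTUD1 siRNA, held 3 libraries each. Both groups carry the same transfection treatment in their labels, and no untransfected cells are among the 6 libraries. The labels do not say what the control cells received, and the sources used here do not give the sequence, dose or time of the OTUD1 siRNA. All 3 OTUD1 siRNA libraries carry the same siRNA name, si01, so a single siRNA stands for the knockdown. The labels do not tie the 3 libraries of each group to separate cultures. The p-values thus speak only of the scatter among these 6 libraries, and that scatter may be technical.

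MicroRNAs begin as hairpins in long nuclear transcripts. The Microprocessor, made of DROSHA and DGCR8, cuts the hairpin out, exportin 5 carries it to the cytoplasm, and DICER1 with TARBP2 trims it to a short duplex. An argonaute keeps one strand of that duplex as a guide, pairs it through its seed with target mRNAs, and binds a TNRC6 protein (the GW182 family), which recruits the deadenylases that shorten the target's tail. A transfected siRNA enters this route at the argonaute step and needs no DROSHA. Most microRNAs of renal epithelium, as of other tissues, take this route, although some are known to bypass the Microprocessor or DICER1. The mature microRNAs themselves were not measured here.

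Total counts ranged from 16753495 to 18993534 in the control libraries and from 17243433 to 21013530 in the OTUD1 siRNA libraries. Levels are given as CPM, counts scaled to a common library size after TMM normalization. A gene is called where its p from edgeR's quasi-likelihood test, adjusted over all genes tested by the Benjamini-Hochberg (BH) method, is below 0.05. OTUD1 itself had 61, 67 and 65 counts in the control libraries and 28, 17 and 25 after its siRNA (log2 fold change -1.69, SE 0.24, by edgeR, adjusted p = 4.37e-07). Of 8 renal epithelial markers, 7 were tested, 5 of them were lower and 1 higher after OTUD1 siRNA, and LRP2 had no count. Over all genes tested, 31.1% were called lower and 29.3% higher. The summed level of the 8 markers went from between 6347 and 6549 CPM in control libraries to between 3117 and 3229 CPM. Most of that sum was the keratins KRT8 (mean 4112 to 1957 CPM) and KRT18 (1604 to 726 CPM). The lineage factor PAX8 (642 to 409 CPM), PAX2 and CA12 were also lower. EPCAM was called higher (log2 fold change 0.14), and CDH16 was not called (-0.01). Of 10 leukocyte markers, 5 had no count in any library, PTPRC and CD3E among them, and the list summed to at most 1.81 CPM. The 8 fibroblast and endothelial markers summed to between 3.47 and 6.56 CPM, most of it COL1A1. The part that these lower epithelial markers have in the results below was not tested. RNA came from whole cultures, so fewer cells with a transcript and less of it per cell cannot be told apart.

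A small set of sequences places this machinery beside its own products, by letters and annotated positions only. The mature microRNAs below are from RefSeq (GRCh38.p14), printed 5′ to 3′ with the seed, bases 2 to 8, in capitals. The first 3 are shown because let-7 and the miR-103/107 pair are known regulators of DICER1 (let-7 through its coding sequence), and the last 2 because their hairpins lie inside the DGCR8 mRNA, where the Microprocessor is known to cut.
let-7a-5p: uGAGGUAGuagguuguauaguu
miR-103a-3p: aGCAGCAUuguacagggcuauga
miR-107: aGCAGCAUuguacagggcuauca
miR-3618: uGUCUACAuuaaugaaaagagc
miR-1306-5p: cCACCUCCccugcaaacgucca

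miR-103a-3p and miR-107 share the seed GCAGCAU, whose complement in an mRNA reads ATGCTGC. Both DGCR8 hairpins lie in exon 2 of the 14 exons of its transcript ENST00000351989.7. The mature miR-3618 maps to chr22:20085797-20085818 in the 5′ UTR, and miR-1306-5p maps to chr22:20086072-20086093 in the coding sequence, both on the plus strand. The rows MIR3618 and MIR1306 held 0 counts in all 6 libraries, which allows up to 0.137 to 0.188 CPM per library for counting error alone, and no value can be given for either hairpin.

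The 3′ UTR of DICER1 is 4270 bases long in its principal transcript (GENCODE 29) and held ATGCTGC at 5 places. Of 1133 tested genes with a 3′ UTR of 0.8 to 1.25 times that length, 29.04% held it at least once, against 13.1% of all 12460 searched. The 5 sites are shown with 10 bases on each side and the match in capitals, in mRNA sense (minus strand of hg38).
chr14:95089448-95089474: cacctaaaatATGCTGCagattttata
chr14:95088847-95088873: gcttcgtggaATGCTGCatttatatgt
chr14:95087643-95087669: agtcctaactATGCTGCgttttataat
chr14:95086372-95086398: ttaccatcacATGCTGCagctgttttt
chr14:95086320-95086346: tacagtaatcATGCTGCagaaatttgc

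TARBP2 has a 3′ UTR of only 283 bases and held 1 such match. It starts at base 262 of the UTR.
chr12:53506400-53506426: tggaataaatATGCTGCtttgtggatt

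Among the 1039 tested genes with a 3′ UTR of similar length to that of TARBP2, 2.3% held ATGCTGC. The same 7-mer occurred 3 times in AGO1, 5 times in AGO2, once in AGO3, 2 times in AGO4 and 3 times in TNRC6B, and not in DROSHA, DGCR8 or TNRC6A. The argonaute and TNRC6B 3′ UTRs are long, from 4285 bases in AGO4 to 16755 in AGO3, and between 29.2% and 65.7% of 3′ UTRs of similar length held it. The let-7 match CTACCTC was found in the 3′ UTRs of AGO1, AGO2 and AGO3, where 49.0% to 51.4% of 3′ UTRs of similar length held it, and of TARBP2, where 2.4% did, but not in that of DICER1. The 7-mer CAAACAA was also searched, because earlier results of these data had drawn attention to it. It occurred in AGO2, AGO3, AGO4 and TNRC6B, where 31.2% to 80.0% of 3′ UTRs of similar length held it, and not in the other 6. Only the mRNA strand was searched, a match is a description of letters, and the relation of these matches to the levels was not tested.

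After OTUD1 siRNA, 5 of the 10 mRNAs fell and 3 rose. TNRC6B (1.90-fold), TNRC6A (1.79-fold) and DGCR8 (1.77-fold) fell more than the other members, and DROSHA rose 1.29-fold. DICER1 and AGO3 fell by smaller amounts, AGO2 and AGO4 rose, and AGO1 and TARBP2 were not called. Across all genes tested, 60.4% were called, 29.3% as higher and 31.1% as lower, so 8 called of 10 stands against a background in which most genes were called. The groups did not overlap for 8 of the 10, against 64.5% of all genes tested. The members' median log2 fold change was -0.10, against 0.01 over all genes tested. With library totals in place of TMM, the median of all genes rose to 0.13, 64.2% of the called genes were higher against 48.4% with TMM, and 4 members were called higher and 3 lower. Without control siRNA replicate 2, 2 members were called higher and 3 lower.

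**Figure D1:**
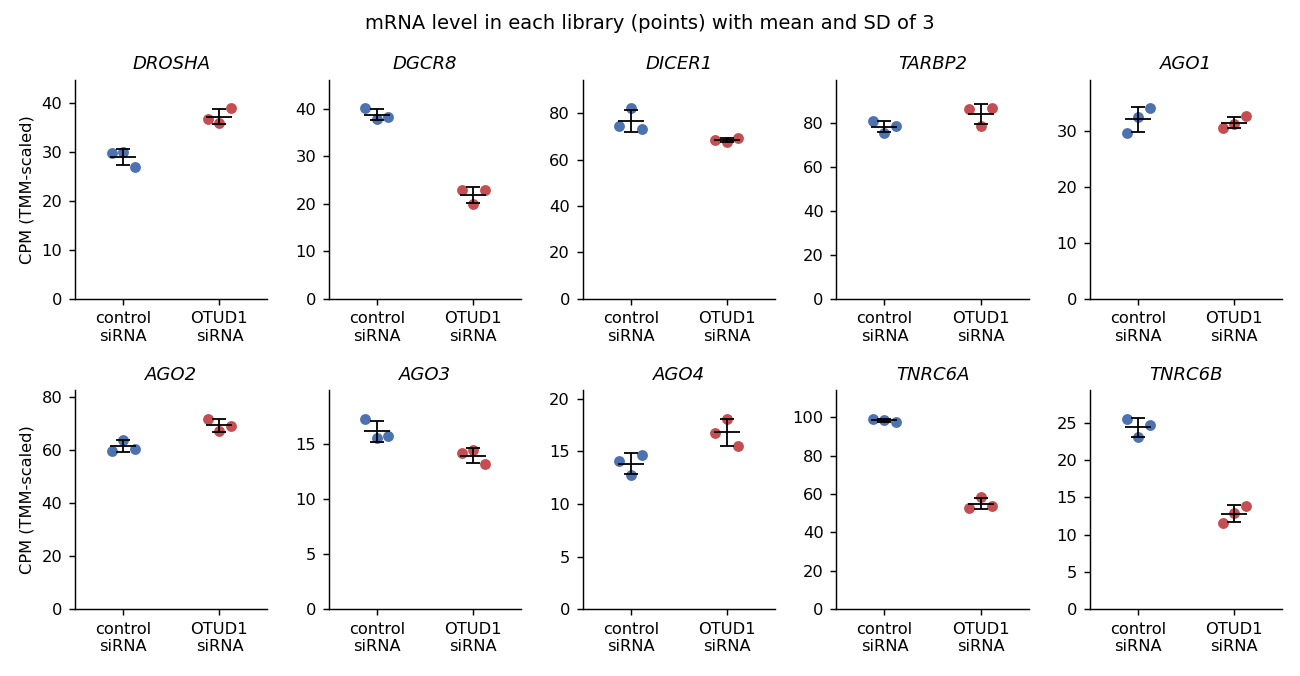
Level of each of the 10 mRNAs in CPM (TMM-scaled, vertical axis from 0) in the 3 control siRNA libraries (blue) and the 3 OTUD1 siRNA libraries (red), with the mean and SD of each group as black bars. DGCR8, TNRC6A and TNRC6B show wide gaps between the groups, whereas AGO1 and TARBP2 overlap.

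**Figure D2:**
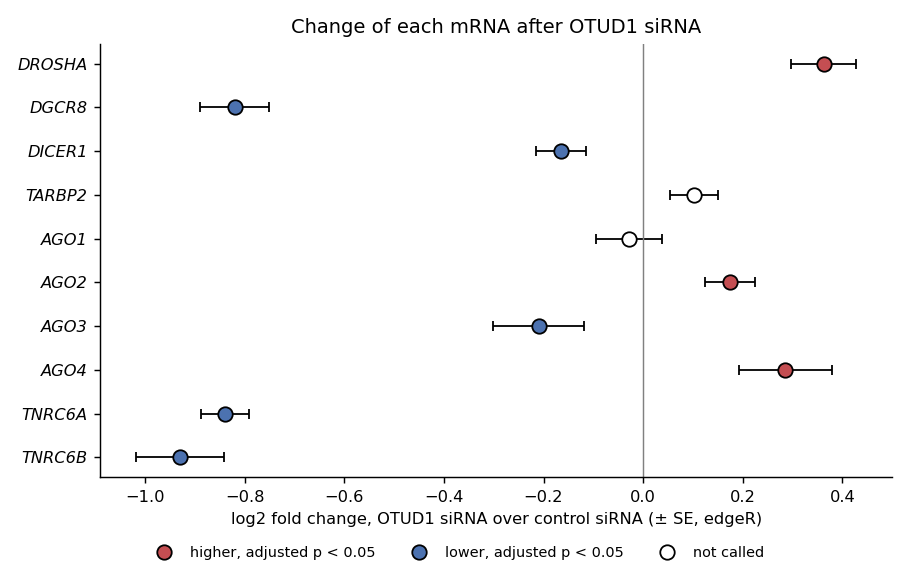
Log2 fold change of each mRNA, OTUD1 siRNA over control siRNA, with its SE from edgeR on the horizontal axis. Filled points passed an adjusted p of 0.05, and TNRC6B, TNRC6A and DGCR8 lie between -0.93 and -0.82.

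The Microprocessor subunits moved in opposite directions: DROSHA mRNA rose while DGCR8 mRNA fell. DROSHA (ENSG00000113360.16; hg38 chromosome 5, 31400497 to 31532196, minus strand), the nuclease of the complex, was at 29.7, 29.8 and 26.9 CPM in control replicates 1 to 3 and at 36.7, 35.7 and 38.8 CPM in OTUD1 siRNA replicates 1 to 3. Every OTUD1 siRNA library lay above every control library. The log2 fold change was 0.36 (SE 0.065, by edgeR, adjusted p = 2.17e-05).

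DGCR8 (ENSG00000128191.15; chromosome 22, 20080232 to 20111877, plus strand), the double-stranded RNA binding subunit that recognises the hairpin, was at 40.1, 37.8 and 38.3 CPM in the control libraries and at 22.9, 20.01 and 22.9 CPM after OTUD1 siRNA. Every control library lay well above every OTUD1 siRNA library. Its log2 fold change was -0.82 (SE 0.069, by edgeR, adjusted p = 2.51e-11). These values rest on 403 to 687 counts per library. The exons of DGCR8 share 7.2% of their bases with the opposite-strand transcript AC006547.2, which had too few counts to be tested, and 0.2% with TRMT2A, which had a log2 fold change of 0.08 (by edgeR, adjusted p = 0.252). The libraries were made with a directional kit, but whether the counting used strand is not stated, so reads in those shared bases may come from either gene.

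The balance between the 2 subunits was taken in each library as the ratio of DROSHA to DGCR8 counts per kilobase of exon. It was 0.697, 0.742 and 0.661 in the control libraries and 1.51, 1.68 and 1.60 in the OTUD1 siRNA libraries. DGCR8 mRNA was thus the more abundant of the pair per length in all 3 control libraries, and DROSHA mRNA in all 3 OTUD1 siRNA libraries. The log2 ratio was higher by 1.19, going from -0.52 ± 0.084 to 0.67 ± 0.079 (SD, n = 3 each; exact two-sided permutation p = 0.1, the smallest that 3 libraries against 3 allow). Because DROSHA rose and DGCR8 fell, each without overlap, the ratio had to separate the groups. Its p therefore adds no support beyond the values of the 2 genes. With the longest transcript as the length, the order within each library was the same, and the difference between groups does not depend on the length used.

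For the dicing step the changes were small. DICER1 (ENSG00000100697.14; chromosome 14, 95086228 to 95158010, minus strand), which cuts the hairpin to a duplex, was at 74.8, 82.2 and 73.3 CPM in the control libraries and at 68.7, 67.5 and 69.5 CPM after OTUD1 siRNA. All OTUD1 siRNA libraries were below all controls, control replicate 2 being the highest of the 6. The log2 fold change was -0.16 (SE 0.049, by edgeR, adjusted p = 0.00515). The call was lost without control siRNA replicate 2 (log2 fold change -0.11, by edgeR, adjusted p = 0.0640), with library totals (-0.04) and with limma after quantile normalization (-0.07). The antisense transcript DICER1-AS1 shares 0.7% of the exon bases of DICER1 and had 6 to 22 counts per library.

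TARBP2 (ENSG00000139546.10; chromosome 12, 53500921 to 53506431, plus strand), the double-stranded RNA binding partner of DICER1, was at 80.9, 75.7 and 78.5 CPM in the control libraries and at 86.6, 78.7 and 86.8 CPM after OTUD1 siRNA. OTUD1 siRNA replicate 2 lay within the control range. The log2 fold change of 0.10 (SE 0.048) did not pass (by edgeR, adjusted p = 0.0697). The exons of TARBP2 share 0.4% of their bases with the opposite-strand AC023509.4. That transcript was called higher at a low level (mean 0.258 CPM in the control group and 0.904 CPM after OTUD1 siRNA, log2 fold change 1.80). TARBP2 passed as higher without OTUD1 siRNA replicate 2 (0.15), without control siRNA replicate 1 (0.12), with library totals (0.23), with quantile normalization (0.20) and among genes averaging at least 5 CPM (0.15).

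PRKRA, a second partner protein of DICER1 known as PACT, fell from 50.01 ± 2.84 to 44.4 ± 1.66 CPM (log2 fold change -0.17, SE 0.057, by edgeR, adjusted p = 0.0107). Its call was lost without control siRNA replicate 2 (-0.13), without OTUD1 siRNA replicate 1 (-0.15), with library totals (-0.04), with quantile normalization (-0.10) and among genes averaging at least 5 CPM (-0.12). XPO5, the exportin that links nuclear and cytoplasmic steps, fell from 161 ± 4.33 to 140 ± 1.56 CPM (log2 fold change -0.20, by edgeR, adjusted p = 4.03e-05), and lost its call with library totals (-0.07) and after quantile normalization (-0.07).

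The 4 argonaute mRNAs did not move together: AGO2 and AGO4 rose, AGO3 fell and AGO1 was not called. AGO2 (ENSG00000123908.11; chromosome 8, 140520156 to 140635619, minus strand), the argonaute known for cutting fully paired targets and so the main carrier of siRNA activity, was at 59.95, 64.1 and 60.6 CPM in the control libraries and at 71.8, 67.2 and 69.3 CPM after OTUD1 siRNA. The groups did not overlap. Its log2 fold change was 0.17 (SE 0.050, by edgeR, adjusted p = 0.00338), and it was called as higher under all 14 alternatives, with adjusted p up to 0.0329.

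AGO1, AGO3 and AGO4 lie in tandem on the plus strand of chromosome 1, within 264.3 kilobases. AGO4 (ENSG00000134698.10; 35808172 to 35857890) comes first, AGO1 (ENSG00000092847.11; 35869808 to 35930528) second, and AGO3 (ENSG00000126070.19; 35930718 to 36072500) starts 189 bases beyond the annotated end of AGO1. All 3 proteins bind microRNAs and silence mainly through TNRC6 proteins.

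AGO4 was at 14.1, 12.7 and 14.7 CPM in the control libraries and at 16.8, 18.1 and 15.6 CPM after OTUD1 siRNA. The groups did not overlap, and replicate 3 of each came closest to the other group. The log2 fold change was 0.29 (SE 0.094, by edgeR, adjusted p = 0.00994). It was 0.23 without control siRNA replicate 2 (by edgeR, adjusted p = 0.0580) and 0.23 without OTUD1 siRNA replicate 2 (by edgeR, adjusted p = 0.0637), so either library decided the call.

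AGO1 was at 29.6, 32.5 and 34.0 CPM in the control libraries and at 30.6, 31.2 and 32.6 CPM after OTUD1 siRNA. All OTUD1 siRNA libraries lay within the control range. Its log2 fold change was -0.03 (SE 0.067, by edgeR, adjusted p = 0.730), and its sign was not stable, at 0.10 with library totals and 0.05 after quantile normalization.

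AGO3 was at 17.3, 15.5 and 15.7 CPM in the control libraries and at 14.2, 14.5 and 13.2 CPM after OTUD1 siRNA. The groups did not overlap, with OTUD1 siRNA replicate 2 and control replicate 2 closest. The log2 fold change of -0.21 (SE 0.091) passed only narrowly (by edgeR, adjusted p = 0.0491), and the gene was called under 3 of 14 alternatives. Leaving out any 1 of the 6 libraries removed the call, with log2 fold changes from -0.24 to -0.16. Between 237 and 311 counts per library stood behind it.

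The share of each argonaute in the summed argonaute mRNA per kilobase of exon was compared next. AGO2 held the largest share in every library, 43.9 ± 1.66% in the control group and 45.6 ± 1.48% after OTUD1 siRNA (SD, n = 3 each), and these ranges overlapped. AGO1 held 26.0 ± 1.31% and 23.6 ± 1.07%, also overlapping. AGO4 went from 19.7% to 22.3% in the control libraries to 22.6% to 25.7% after OTUD1 siRNA, and AGO3 went from 8.22% to 9.41% down to 6.56% to 7.09%. The shares of AGO3 and AGO4 did not overlap between groups, and the exact two-sided permutation p of 0.1 for each is the smallest this design allows. For AGO1 and AGO2 the exact permutation p was 0.2. AGO1 stood above AGO4 in each control library. After OTUD1 siRNA, AGO4 was above AGO1 in replicates 1 and 2 and below it in replicate 3.

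**Figure D3:**
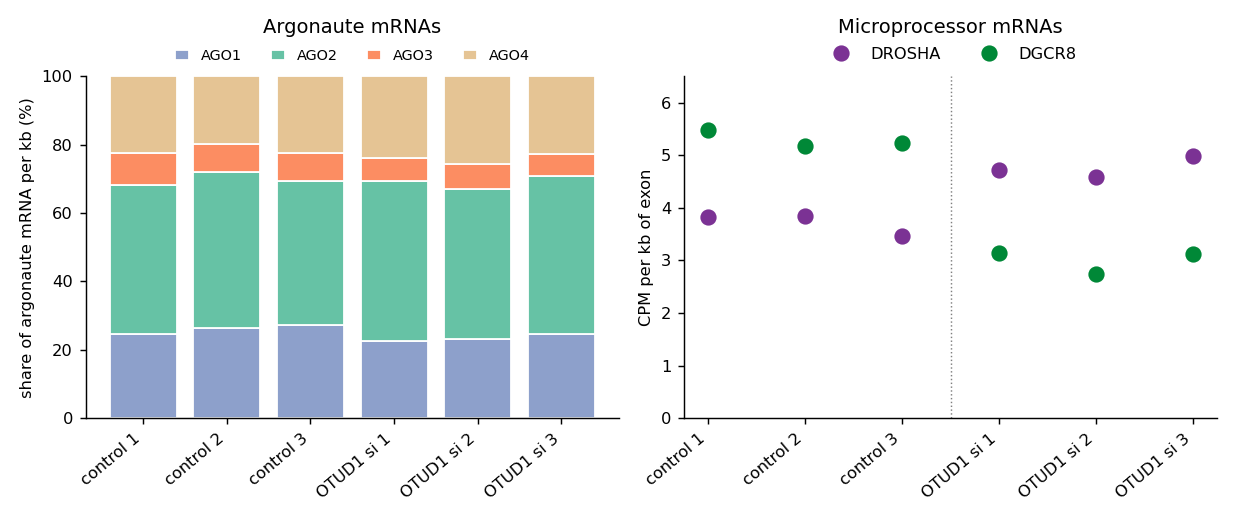
Left, share of each argonaute in the argonaute mRNA per kilobase of exon (percent, stacked bars, 1 bar per library); right, CPM per kilobase of exon of DROSHA and DGCR8 in each library, with a dotted line between the groups. AGO2 is the largest segment in all 6 bars, and the order of DROSHA and DGCR8 switches at the dotted line.

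Both TNRC6 scaffold mRNAs fell, by amounts close to that of DGCR8. TNRC6A (ENSG00000090905.18; chromosome 16, 24610209 to 24827632, plus strand), which bridges argonautes and deadenylases, was at 99.0, 98.5 and 97.5 CPM in the control libraries and at 52.7, 58.3 and 53.8 CPM after OTUD1 siRNA. The control libraries lay close together and far above the others. Its log2 fold change was -0.84 (SE 0.048, by edgeR, adjusted p = 4.14e-15).

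TNRC6B (ENSG00000100354.20; chromosome 22, 40044817 to 40335808, plus strand), a paralog with the same role, was at 25.5, 23.0 and 24.6 CPM in the control libraries and at 11.6, 12.96 and 13.9 CPM after OTUD1 siRNA. The groups were again well apart. The log2 fold change was -0.93 (SE 0.088, by edgeR, adjusted p = 2.67e-10). The order of TNRC6A and DGCR8 turned after quantile normalization (-0.75 against -0.77) and without OTUD1 siRNA replicate 1 (-0.81 against -0.86) or 3 (-0.83 against -0.85). Over all 14 alternatives TNRC6A ranged from -0.89 to -0.71 and TNRC6B from -0.99 to -0.80, and both were called in each. TNRC6C, a further paralog, had 13 to 33 counts per library and was at 0.946 ± 0.267 and 1.21 ± 0.306 CPM, which did not pass (log2 fold change 0.37, SE 0.34, by edgeR, adjusted p = 0.363).

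Summed over TNRC6A and TNRC6B, the level was 121 to 124 CPM in the control libraries and 64.3 to 71.2 CPM after OTUD1 siRNA. The 4 argonautes summed to 121 to 125 CPM and 131 to 133 CPM. Scaffold mRNA was lower in total and argonaute mRNA slightly higher in total, each without overlap between the groups (exact permutation p = 0.1 for each sum, the smallest possible here). The Microprocessor pair summed to 67.6 ± 2.31 CPM in the control group and 59.0 ± 3.03 CPM after OTUD1 siRNA, although DROSHA alone rose. With TMM scaling this sum was lower without overlap (exact permutation p = 0.1). DICER1 and TARBP2 together went from 155 ± 3.03 to 153 ± 5.50 CPM and overlapped (exact permutation p = 0.6). These sums were formed after the values of the single genes had been seen. They were not repeated under the other scalings, so each separation is given for TMM scaling only.

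Per kilobase of exon, TARBP2 was the most abundant of the 10 mRNAs in control libraries, at 19.2 ± 0.636 CPM per kilobase (SD, n = 3). TNRC6A came second at 7.61 ± 0.0583, followed by DICER1 at 6.25 ± 0.387, DGCR8 at 5.30 ± 0.165, AGO2 at 3.89 ± 0.141, DROSHA at 3.71 ± 0.213, AGO1 at 2.31 ± 0.162, AGO4 at 1.90 ± 0.137, TNRC6B at 1.22 ± 0.0624 and AGO3 at 0.764 ± 0.0453. AGO2 and DROSHA overlapped, and the other neighbours in this order did not. After OTUD1 siRNA, TNRC6A came lower in the order, at 4.25 ± 0.229, with AGO2 next above it at 4.39 ± 0.148 and overlapping it, and DGCR8 was below both, at 2.9995 ± 0.229. DROSHA stood above AGO2, at 4.77 ± 0.202, while TNRC6B at 0.641 ± 0.0569 was the lowest, where it overlapped AGO3 at 0.659 ± 0.0328. With the longest transcript as the length, DGCR8 stood above DICER1 in the control group, and DROSHA stood above AGO2.

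The genes around these 10 in the pathway were read from 4 lists with 84 genes, of which 81 were tested. In all, 55 were lower and 10 higher after OTUD1 siRNA, with a median log2 fold change of -0.24, against 31.1% lower, 29.3% higher and a median of 0.01 over all genes tested. The lists were drawn up with earlier results of these data known, so this difference describes them and is no independent test of the pathway. With library totals, 38 were lower and 15 higher. After quantile normalization 41 were lower and 16 higher, without a filter on low counts 55 and 6, and without control siRNA replicate 3 they were 54 and 6.

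Of 20 genes for nuclear processing and export, 17 were lower and 1 higher (median -0.27), against 31.1% and 29.3% of all genes tested. SRRT, which couples the cap-binding complex to Microprocessor cutting, went from 180, 167 and 172 CPM to 99.8, 106 and 108 CPM, a log2 fold change of -0.73 (SE 0.041, by edgeR, adjusted p = 3.45e-15). KHSRP, a binding protein of let-7 precursors, fell by 0.67 on the log2 scale. The 1 higher gene was HNRNPA1, an hnRNP that binds some primary microRNAs, from 896 ± 10.2 to 975 ± 14.1 CPM (log2 fold change 0.12). DGCR8 fell beside most of this list, whereas DROSHA rose.

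Of 16 dicing partners and factors that load or carry argonautes, 13 were lower and 2 higher (median -0.24). Over all genes tested, 31.1% were lower and 29.3% higher. TSN, which with TSNAX forms a nuclease that clears passenger strands, fell from 147 ± 1.71 to 77.0 ± 4.99 CPM (log2 fold change -0.93, SE 0.044, by edgeR, adjusted p = 6.04e-17). IPO8, an importin that binds argonautes, fell by 0.73 on the log2 scale. AHSA1, an activator of the HSP90 chaperone, rose by 0.34, and FKBP5, an HSP90 co-chaperone, rose by 0.14. FKBP5 lost its call without a filter (0.13) and without control siRNA replicate 1 (0.12) or 3 (0.13) or OTUD1 siRNA replicate 2 (0.13) or 3 (0.14).

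Of 32 silencing effectors that act with or after the TNRC6 proteins, 17 were lower and 6 higher (median -0.13). Among all genes tested, 60.4% were called, 31.1% as lower and 29.3% as higher. LIMD1, an argonaute-binding LIM protein, went from 61.0, 65.3 and 65.6 CPM to 29.8, 33.3 and 35.4 CPM, a log2 fold change of -0.97 (SE 0.061, by edgeR, adjusted p = 4.78e-14). CNOT8, a deadenylase subunit, fell by 0.76 on the log2 scale. EDC3, an activator of decapping, rose from 26.5 ± 0.635 to 44.4 ± 0.706 CPM (log2 fold change 0.74, SE 0.061, by edgeR, adjusted p = 1.36e-11), and DCP2, the decapping enzyme, rose from 22.5 ± 1.22 to 35.6 ± 1.99 CPM (0.66, SE 0.070, by edgeR, adjusted p = 2.48e-09). Other decapping factors of the list did not all move this way. DCP1B was called higher (0.20), although its groups overlapped. EDC4 (-0.34), DDX6 (-0.54) and LSM14A (-0.32) were called lower, and DCP1A (0.0065), PATL1 (-0.05) and LSM14B (-0.009) were not called. These other factors were named after their values were seen.

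Of 13 tested genes of microRNA tailing and turnover, 8 were lower and 1 higher (median -0.26), against 31.1% and 29.3% of all genes tested. TENT4B, a non-canonical poly(A) polymerase, fell by 0.87 on the log2 scale and ERI1, an exonuclease that limits small RNAs, by 0.74. SND1, a nuclease found in the silencing complex, rose from 301 ± 13.2 to 383 ± 9.55 CPM (log2 fold change 0.35, SE 0.034, by edgeR, adjusted p = 4.59e-10). The other 3 listed genes, LIN28A, LIN28B and TRIM71, had too few counts to be tested.

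**Figure D4:**
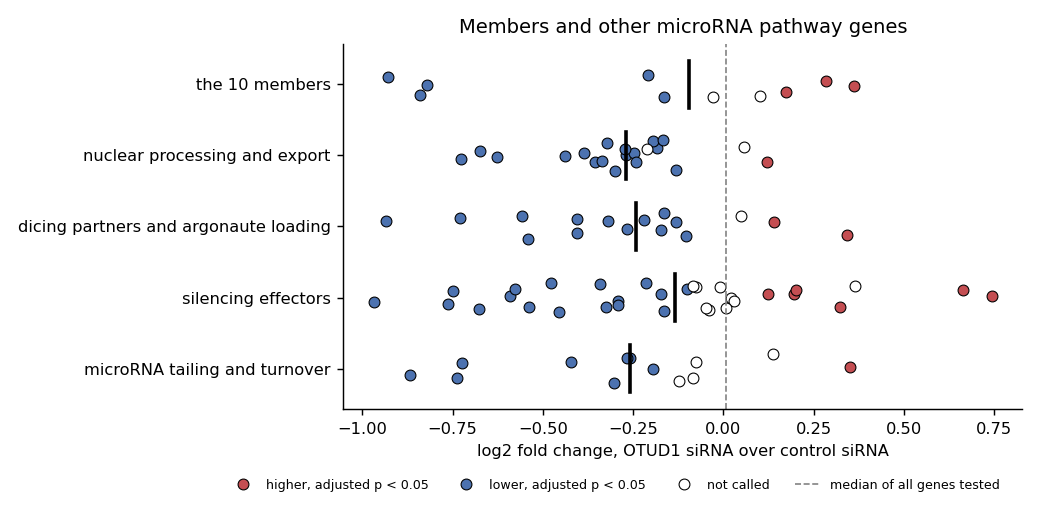
Log2 fold change (horizontal axis, OTUD1 siRNA over control siRNA) of the 10 genes and of the tested genes of 4 pathway lists, 1 point per gene, with the median of each row as a black bar and the median of all genes tested as a dashed line. In all 5 rows the median lies below the dashed line, and the members run from -0.93 to 0.36.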

How the data were processed

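RNA-seq libraries were made with a strand-keeping NEBNext kit, per the labels' protocols, and the submitters' processing notes name the build hg38. The sources used here do not give the aligner, counter, strand setting or annotation. Although its name speaks of FPKM, the deposited table holds whole numbers whose totals differ between libraries, so the authors' values were taken as raw counts. Counts were fitted in R 4.3.3 with edgeR 4.0.16 (filterByExpr, at least 10 counts in 3 libraries at the median library size and 15 in all; TMM; glmQLFit and glmQLFTest, two-sided; Benjamini-Hochberg over 15244 genes). These edgeR functions were first run, with scaling before the filter, on simulated counts in which few genes changed, equally in both directions. That run does not test the scaling in these data, where 60.4% of genes were called. The SE is the absolute log2 fold change over the square root of F. The members and lists were chosen with earlier results of these data known, so no p is adjusted over a list. Named pathway genes are, per list, the 2 largest called rises and falls without overlap between groups, plus TNRC6C, PRKRA and XPO5. Exon lengths, coordinates and 3′ UTRs (longest of the principal transcripts, at least 50 bases) are from GENCODE 29. Alternatives covered the low-count filter, the scaling, DESeq2 1.42.0, limma 3.58.1, a replicate block and leaving out each library. No 2 libraries of a group were near-identical: their mean chi-square per gene was 2.05 to 3.73, above sampling noise. The overall coefficient of variation between replicates from edgeR was low, at 3.78%. Neither measure tells whether the libraries came from separate cultures.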

Additional observations from a re-analysis of the deposited data

How the results depend on the processing

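The 10 members under 14 alternatives gave 140 log2 fold changes, of which 115 kept their direction and their side of the threshold. Of the others, 16 lost a call (AGO3 in 11, DICER1 in 3, AGO4 in 2), 5 gained one (TARBP2) and 4 changed sign, all in AGO1: 0.020 with a minimum mean of 5 CPM, 0.10 with library totals, 0.047 after quantile normalization, and from -0.084 to 0.018 when libraries were left out in turn. AGO2, DROSHA, DGCR8, TNRC6A and TNRC6B kept their calls in all 14. The number of members called lower was 3 with library totals and 3 to 4 with libraries left out. The number of pathway genes called higher was 6 without a filter, 16 after quantile normalization and 6 to 10 with libraries left out. With no length correction the AGO3 share fell by 2.51 percentage points, against 1.79 with it. OTUD1 kept its call in the 13 alternatives that tested it. The cause of these changes was not tested. Deviations of libraries with the same replicate number correlated at -0.02, 0.01 and -0.02, so no shared deviation was seen. Whether such libraries were prepared as pairs cannot be told from this. With the replicate block, 3 members were called higher and 5 lower and 10 and 55 pathway genes, as without it, and OTUD1 was at -1.69. The lowest counts in any library were 225 for AGO4 and 237 for AGO3, followed by 250 for TNRC6B, which kept its call. Whether depth limits the AGO3 and AGO4 calls was not tested.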

Other observations

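TNRC6C-AS1, the long non-coding RNA named for its place opposite TNRC6C, was at 1.94, 1.05 and 0.817 CPM in the control libraries and at 3.05, 2.68 and 2.39 CPM after OTUD1 siRNA, from 14 to 67 counts per library. The groups did not overlap, and the log2 fold change was 1.11 (SE 0.28, by edgeR, adjusted p = 0.00101). It was singled out after its values were seen. TNRC6C itself was not called.

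Spread between libraries of a group differed among the members. In the control group the coefficient of variation ran from 0.766% for TNRC6A to 7.19% for AGO4, and after OTUD1 siRNA from 1.45% for DICER1 to 8.87% for TNRC6B.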
